A study of Rattus with 9 samples.

Results

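Dendritic cells of the rat bile duct were examined after liver transplantation. A cell was counted as a dendritic cell when at least 3 unique molecular identifiers (UMIs, 1 for each captured transcript) of the MHC class II gene RT1-Da were present together with at least 2 of the 5 genes Flt3, Xcr1, Clec9a, Ccr7 and Zbtb46. It could hold at most 2 UMIs of the macrophage complement genes C1qa, C1qb and C1qc in sum, and none of Cd3e, Cd79a, Cd79b, Epcam or Lum, which mark T cells, B cells, epithelium and fibroblasts. This rule found 374 cells among 150379 cells kept after quality filters, or 0.249%. Because measured counts chose these cells, the levels of the rule's genes are given as a description without a test, and so is each difference between these cells and other cells.

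Dendritic cells take up antigen, carry it to lymph nodes and present it to T cells on MHC molecules. Flt3 is the receptor of the growth factor on which the lineage depends, and Zbtb46 is a transcription factor of conventional dendritic cells. Xcr1, a chemokine receptor, and Clec9a, a receptor for the exposed actin of dead cells, mark the conventional type 1 cells (cDC1), which are specialised in cross-presentation to CD8 T cells and depend on Batf3 and Irf8. On maturation, dendritic cells of every type raise Ccr7, the receptor that guides them to lymph nodes, with Fscn1, Marcksl1 and Cacnb3 among the genes of that state. Plasmacytoid dendritic cells are a separate lineage built by Tcf4 that carries Siglech in rodents and is known for making type I interferon. In a transplant, donor and recipient dendritic cells both take part in the recognition of the graft.

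The bile ducts came from Sprague-Dawley rats and were digested to single cells and profiled with 10x 3' libraries. There were 3 sham samples, 3 samples after liver transplantation with ischemic injury (LT) taken at days 1, 3 and 7, and 3 samples at the same days after transplantation with the arterial flow raised by tying off the splenic and the gastric-duodenal arteries (LT with raised arterial flow). The sham samples carried no day. Each LT sample was made of 3 libraries and each raised-flow sample of 3, except that 2 libraries were analysed here at day 3, while each sham sample was 1 library. Whether a sample's libraries were of 1 rat or of several was not given in the labels, and each arm had 1 sample at each day, so the day and any other property of that sample cannot be told apart.

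The dendritic cells came from 16 of the 20 libraries. They held 3768179 UMIs in all, with a median of 9949 UMIs and 2073 genes in a cell, against a median of 3898 UMIs over all kept cells. Their UMIs ranged from 67404 in sham sample 2 to 1483367 in LT with raised flow at day 7, so low genes were least certain in the sham samples. Sham sample 1 held no dendritic cell among 2456 kept cells, which allows a share of up to 0.122%. At LT day 1, 29 of the 30 dendritic cells came from 1 library, 1 from another and none from the third. At LT day 3 all 11 came from 1 library, since the hemoglobin limit alone took 2479 and 3966 barcodes from the other 2 libraries and left 437 and 337 cells. None of the barcodes removed that way met the rest of the rule. Any 2 libraries shared at most 59 cell barcodes, or 1.19% of the cells of the smaller library.

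The genes of the rule were unequally present, which the rule itself partly fixed. Clec9a was detected in 341 of the 374 cells (91.2%), Xcr1 in 209 (55.9%), Flt3 in 189 (50.5%), Ccr7 in 57 (15.2%) and Zbtb46 in 26 (6.95%). In macrophages, B cells, T cells, fibroblasts and epithelium defined by their own markers, Clec9a was detected in 0.0738 to 0.324% of cells, Xcr1 in 0.0398 to 0.144% and Flt3 in 0.0568 to 0.341%, at median depths of 2373 to 8652 UMIs. Ccr7, which lymphocytes also use, was detected in 4.29% of B cells and 3.98% of T cells. Xcr1 or Clec9a was present in 350 of the dendritic cells (93.6%). These shares cannot check the label, because the same genes chose the cells. Outside the rule, the cDC1 genes Naaa, Wdfy4 and Irf8 stood at 540, 229 and 574 UMIs per 1000000 UMIs of all dendritic cells (CPM).

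Conventional type 2 dendritic cells (cDC2) present antigen mainly to CD4 T cells. Their 17 listed genes summed to 349 to 875 CPM in a sample. The 15 listed cDC1 genes, which include Xcr1 and Clec9a of the rule, summed to 1469 to 2685 CPM. Several genes of cDC2 were sparse. Sirpa, the signal regulatory receptor used to define them, gave 10 UMIs in 10 cells. Irf4, a transcription factor they need, gave 14 UMIs in 10 cells, Cd209a 1 UMI, and Csf1r, the receptor of the macrophage growth factor, 18 UMIs in 7 cells. Klf4 and the lectin Clec10a were better measured, at 338 and 67.4 CPM. Notch2 of the same list averaged 157 CPM in sham, 57.8 after LT and 69.4 with raised flow, and Itgax 109, 26.7 and 44.5. The 5 rule genes hold 2 markers of cDC1 and none of cDC2 alone, so cDC2 had fewer ways to enter.

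The edge of the rule was examined next. Of the members, 303 carried exactly 2 of the 5 genes, 68 carried 3 and 3 carried 4. Outside it stood 950 cells that carried 1 of the 5 and met every other condition. Those cells had 176 CPM of Naaa, an acid amidase found in cDC1, against 486 CPM in the members with 2 genes. They had more Sirpa (15.5 against 2.70 CPM), Csf1r (42.3 against 5.40) and Clec10a (190 against 65.9). Another 3 cells missed the rule at 2 UMIs of RT1-Da, no member stood at exactly 3, 15 cells missed it at 3 or 4 C1q UMIs, and 73 missed it through 1 UMI of an excluding gene.

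Against the 5 other cell classes, the dendritic cells stood out by a small set of genes. Among 2064 genes with at least 50 CPM in the dendritic cells, 10 were over 10 times the highest level of any of those classes, including Xcr1, Clec9a and Flt3 of the rule. Of the other 7, Tlr12, a receptor for the protozoan protein profilin, stood at 61.6 against 0.701 CPM. Kdr, a receptor of vascular endothelial growth factor, stood at 180 against 5.20 CPM and was found in 194 cells. The endothelial genes Cdh5 and Emcn were found in 9 cells and 1 cell. Other genes of the endothelial list were better measured. Plvap averaged 72.2 CPM in sham, 107 after LT and 156 with raised flow, and Esam 34.1, 57.7 and 69.4 CPM. Slpi, a secreted inhibitor of neutrophil proteases, reached 31991 CPM against 1901 in macrophages, and Cst3, the protease inhibitor cystatin C, reached 28992 against 2561. In macrophages of day 1 alone, Slpi stood at 7101 CPM after LT and 5672 with raised flow. Endothelial cells and neutrophils, on whose marker lists Kdr and Slpi stand, were not among the 5 classes. Tnni2 (118 against 5.59 CPM), Mab21l3 (51.5 CPM) and the lectin-like receptor gene Klri1 (172 CPM) completed the set.

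Less exclusive genes of the lineage followed. Naaa was at 540 against 66.0 CPM in the next class, Wdfy4, which cDC1 need for cross-presentation, was at 229 CPM and 5.63 times the next class, and Irf8 was at 574 against 150 CPM. Cd74, the invariant chain of MHC class II, was at 16586 against 10779 CPM, which is 1.54 times. Of genes that define other cells, Marco, Vsig4 and Cd5l of macrophages, Ms4a1 and Pax5 of B cells and Gzmb, Trat1 and Cd5 of T cells gave no UMI, and Krt19 of bile duct epithelium gave 3. Other members of those lists were present, so that the summed lists reached up to 946 CPM in a sample for macrophages and 334 CPM for T and NK cells. Ido1 and Il10, which dendritic cells can make under tolerogenic conditions, gave no UMI, Il6 and Tnf were each found in 1 cell, and Lamp3 in 3 cells.

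**Figure D1:**
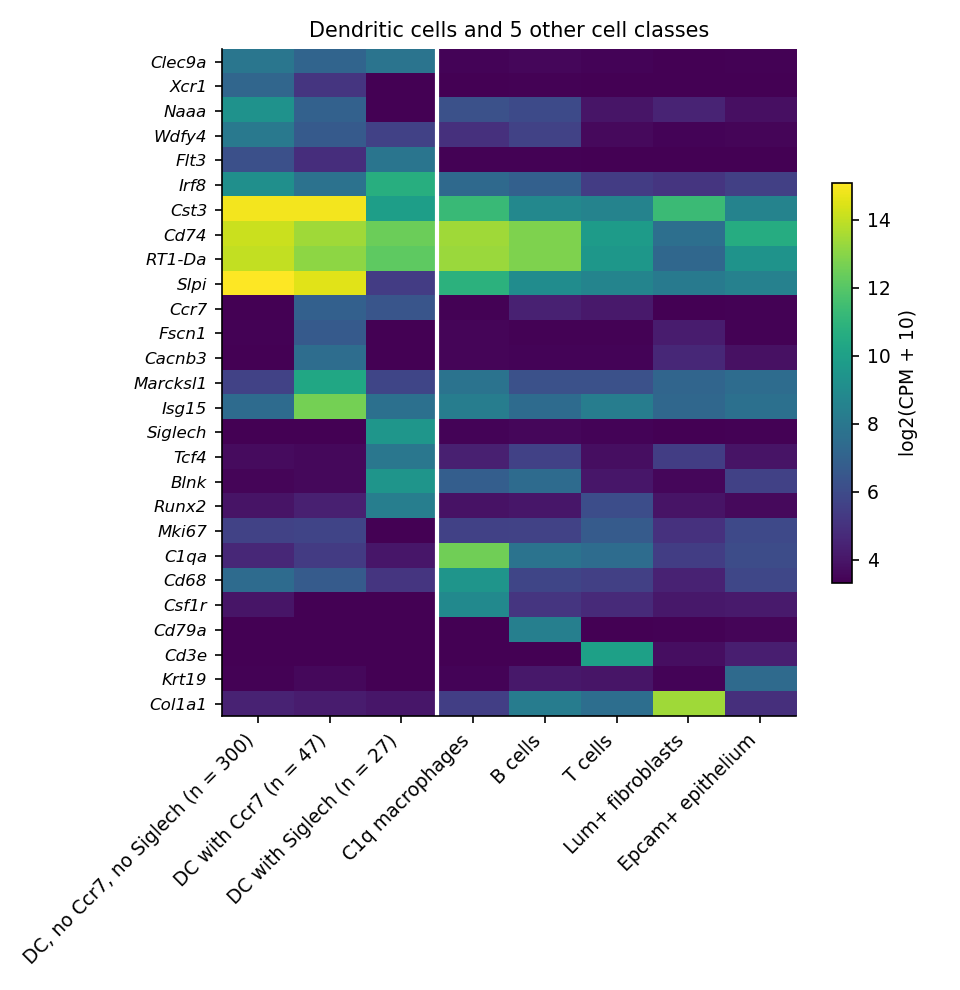
Heat map of log2(CPM + 10) for named genes (rows) in 3 populations of dendritic cells and 5 other cell classes (columns), each summed over all samples. Siglech and Blnk are high in the Siglech population, Cacnb3 and Isg15 in the Ccr7 population, and Xcr1 and Naaa in the cells with neither gene.

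Inside the dendritic cells, 3 populations were set apart by detection of 2 genes: 300 cells with neither Ccr7 nor Siglech, 47 cells with Ccr7 and no Siglech, and 27 cells with Siglech, of which 10 also had Ccr7. The median depth was 10353, 10119 and 5421 UMIs. These levels are sums over all samples, and they are a description, since genes of the same cells drew the lines. LT day 1 gave 24 of the 47 cells with Ccr7 and weighs on every sum of that population.

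The 300 cells with neither gene held genes of cDC1. Clec9a stood at 234 CPM and Xcr1 at 139 CPM, but both are genes of the rule and cannot check that label. Tlr3, the endosomal sensor of double-stranded RNA, was at 86.5 CPM, against 12.6 in the Ccr7 population and 0 in the Siglech population. Cxcl9, a chemokine that draws activated T cells, was at 492 CPM, against 105 and 0. RT1-Da stood at 16286 CPM and Cd74 at 18013 CPM, the highest of the 3 populations.

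In the sums, genes of mature, migrating dendritic cells stood higher in the 47 cells with Ccr7. These genes were not in all of those cells. Cacnb3 and Fscn1 were low or absent in the Ccr7 population of day 7, as given below. Raised-flow libraries 2 and 3 of day 1 held cells with Ccr7 but gave 0 CPM of Cacnb3, Fscn1 and Aldh1a2. Cacnb3, a calcium channel subunit, was at 176 CPM and gave no UMI in the other 2 populations. Fscn1, the actin-bundling protein fascin, was at 90.0 against 0.6 CPM in the 300 cells, and Marcksl1, an actin-regulating protein, at 1277 against 39.6. Aldh1a2, an enzyme that makes retinoic acid, was at 270 against 0.64 CPM.

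Some signals to T cells also stood higher in the sums of the Ccr7 population, but they were not limited to it. With raised flow at day 3, Cd40 was found in 9 of 15 cells, and Ccr7 in 0. With raised flow at day 7, Cd40 was found in 43 and Ccl5 in 36 of 147 cells, and Ccr7 in 6. Cd40, the co-stimulatory receptor for CD40 ligand, was at 245 against 65.4 CPM, Il12b, a subunit of interleukin 12, at 69.1 against 0, and Cd274, which codes for the checkpoint ligand PD-L1, at 46.1 against 1.6. Ccl5, a T cell chemokine, reached 2736 against 255 CPM. The interferon-stimulated gene Isg15 reached 6261 against 163 CPM in the sums, although with raised flow at day 7 it stood at 33.6 CPM in 3 cells with Ccr7 and at 74.5 CPM in the cells with neither gene. By contrast Cd86 was lower in the Ccr7 population, at 69.1 against 107 CPM. Cd83 was at 249 against 198 CPM.

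In the sums, the Ccr7 population held less of the cDC1 gene Naaa and of class II genes. Naaa was at 117 against 631 CPM, RT1-Da at 8750 against 16286 and RT1-Bb, a class II beta chain, at 1572 against 5012. For RT1-Da the order turned at day 7, with 17752 CPM in the cells with Ccr7 against 17327 in those with neither gene after LT, and 24125 against 16631 with raised flow. B2m, the light chain of MHC class I, went the other way, at 15505 against 8617 CPM. Cst3 was level at 30211 and 30202 CPM.

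The 27 cells with Siglech held genes of plasmacytoid dendritic cells. Siglech was at 718 CPM, Tcf4 at 243 against 2.9 CPM in the 300 cells and found in 77.8% of the 27, and Blnk, an adaptor of the B cell receptor that plasmacytoid cells share, at 698 against 1.3. Tlr7, the endosomal sensor of single-stranded RNA, was at 128 against 1.0 CPM, whereas Tlr9 gave no UMI in the 27 cells. Irf8 stood at 1679 CPM and Runx2, a transcription factor of plasmacytoid cells, at 314 against 5.4. Xcr1, Naaa, Batf3, Tlr3 and Cxcl9 were not detected there, and Slpi was at 32.0 against 34821 CPM and Cst3 at 955 against 30202. Clec9a, at 218 CPM, was close to the 234 CPM of the 300 cells, and Flt3, at 231 CPM, was above them (62.5 CPM).

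The share of dendritic cells among kept cells was compared between groups over samples. It was 0, 0.110 and 0.142% in the sham samples. After LT it was 0.218% at day 1, 0.135% at day 3 and 0.284% at day 7, and with raised flow 0.189, 0.0848 and 0.528%. Both arms were lowest at day 3 and highest at day 7. The day 7 samples gave 97 and 147 of the 374 cells.

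The transplanted samples had a mean of 0.240% ± 0.157 (SD, n = 6) and the sham samples 0.0841% ± 0.0745 (SD, n = 3). The difference of 0.156 percentage points did not pass an exact two-sided permutation test (p = 0.119, 0.238 after adjustment over the 2 comparisons of shares), and the groups overlapped. When every cell was first thinned to 2000 UMIs, the means were 0.0633 and 0.0110%, the groups did not overlap and the exact permutation p was 0.0238. That result rests on few cells, since thinning left 70 dendritic cells in all. The sham samples kept 0, 1 and 2 of them, LT 5, 2 and 16 at days 1, 3 and 7, and raised flow 7, 4 and 33. Against cells with Ptprc, the pan-leukocyte gene CD45, the order turned, with 0.407% in transplanted and 0.500% in sham samples (exact permutation p = 0.690). Cells with Ptprc made up 14.4 to 19.6% of kept cells in sham and 30.4 to 59.3% in transplanted samples.

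Raised flow gave a mean share of 0.267% ± 0.232 (SD, n = 3) and LT alone 0.212% ± 0.0745 (SD, n = 3). The difference of 0.0552 percentage points was within the spread (exact two-sided permutation p = 0.9, adjusted 0.9, where 0.1 is the smallest that 3 against 3 can give). Day by day, raised flow minus LT was -0.0284, -0.0502 and 0.244 percentage points at days 1, 3 and 7. Without the raised-flow sample of day 7 the difference was -0.0751.

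**Figure D2:**
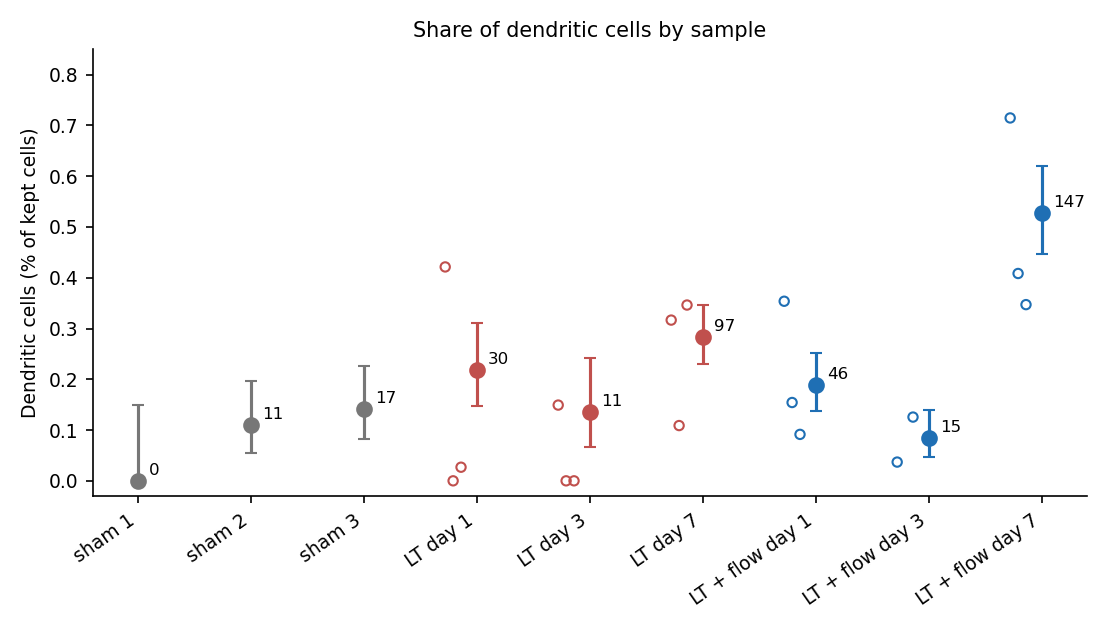
Dendritic cells as percent of kept cells in each of the 9 samples, by group and day. Solid points are samples with exact 95% binomial intervals and the number of dendritic cells beside them, and open circles are single libraries. The raised-flow sample of day 7 is the highest at 0.528%, and the sham samples lie at 0 to 0.142%.

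The make-up of the dendritic cells differed between samples mainly at day 1. Ccr7 was detected in 25 of 30 dendritic cells at LT day 1, or 83.3% (exact 95% interval 65.3 to 94.4), and in 13 of 46 with raised flow at day 1, or 28.3% (16 to 43.5). At day 7 it was detected in 7 of 97 after LT (7.22%, 2.95 to 14.3) and in 6 of 147 with raised flow (4.08%, 1.51 to 8.67). The sham samples had 2 of 11 and 2 of 17, LT day 3 had 2 of 11, and raised flow at day 3 had 0 of 15, which allows up to 20%. In C1q macrophages of LT day 1, which do not use Ccr7, it was detected in 0.661% of cells at a median of 1452.5 UMIs, while the dendritic cells of that sample had a median of 9932.5.

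No test was made of these shares because Ccr7 is a rule gene. The intervals cover counting error only, and the LT day 1 value came nearly whole from 1 library. After thinning to 2000 UMIs the rule left 5 dendritic cells at LT day 1, of which 3 (60.0%) had Ccr7, and 7 with raised flow at day 1, of which none had. Siglech cells were 1 to 8 in each sample and were most frequent at LT day 3, with 4 of 11.

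**Figure D3:**
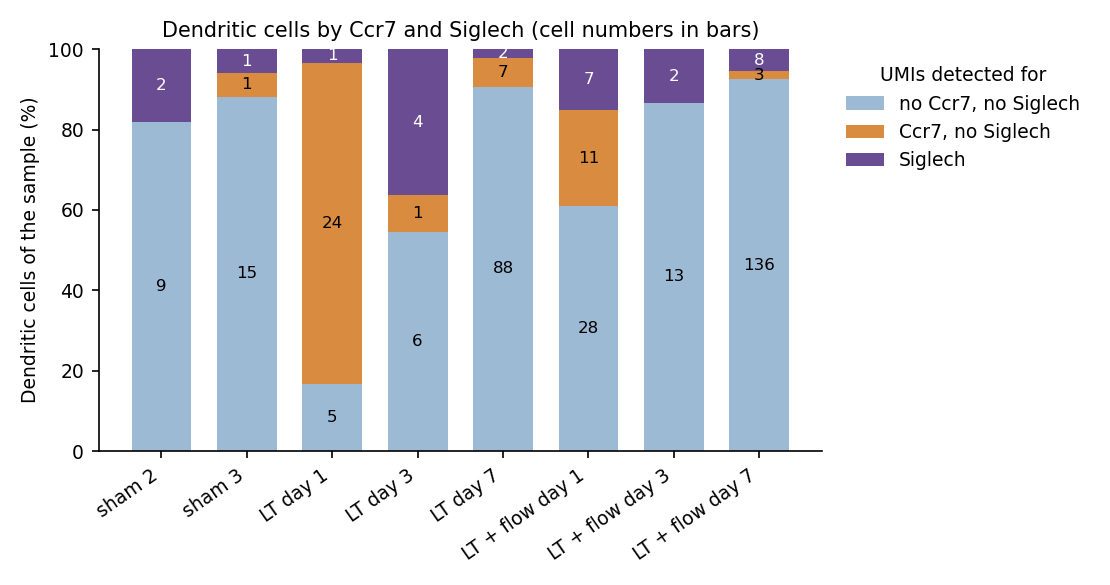
Make-up of the dendritic cells in the 8 samples that held any, as percent of cells with neither Ccr7 nor Siglech, with Ccr7 and no Siglech, and with Siglech (stacked to 100%, cell numbers in the bars). LT day 1 holds 24 cells of the Ccr7 population among 30, while the day 7 samples hold 7 among 97 and 3 among 147.

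Which genes of the dendritic cells changed from day 1 to day 7 was asked with summed counts of the 4 samples of those days that had at least 20 dendritic cells. The fit, edgeR's quasi-likelihood test with arm and day as terms, had 1 residual degree of freedom, and adjusted p-values below are Benjamini-Hochberg values from it over 5100 genes. It called 42 genes (0.824%) at an adjusted p below 0.05, of which 36 were lower at day 7 (0.706%) and 6 higher (0.118%), while 383 had an unadjusted p below 0.05 and DESeq2 called 29. The 36 include Ccr7, which chose cells and is not counted as a result, so 41 genes remained. The calls were lost when the Siglech cells were left out. These were 1 and 2 cells at LT days 1 and 7 and 7 and 8 cells with raised flow. Without them no gene passed in edgeR, 289 had an unadjusted p below 0.05, and folds were of like size (Isg15 -3.97 on the log2 scale, adjusted p = 0.101). Why the calls were lost was not tested. Without the 7.5% of cells with the most UMIs 9 genes passed.

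Genes of mature dendritic cells were among those that fell. These genes go with Ccr7, a rule gene that 25 of the 30 cells of LT day 1 carried, and the part of that choice was not tested. Cacnb3 had 221 CPM at LT day 1 and 0.986 at LT day 7, and 20.5 and 0 CPM with raised flow. It was found in 15 of 30, 1 of 97, 6 of 46 and 0 of 147 cells, so day 1 was above day 7 in both arms (log2 fold change -7.63, SE 0.85, adjusted p = 0.000770). Fscn1 went from 97.3 to 0.986 CPM after LT and from 26.7 to 0.674 with raised flow (-5.86, SE 0.80, adjusted p = 0.00345). Within raised flow day 1, the libraries held 26, 11 and 9 dendritic cells. They gave 35.2, 0 and 0 CPM of Cacnb3 and 45.8, 0 and 0 CPM of Fscn1. LT day 1 also came nearly whole from 1 library, so for these genes each arm's day 1 level rests on 1 library.

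Marcksl1 went from 1690 to 73.9 CPM after LT and from 154 to 35.7 with raised flow (log2 fold change -3.35, SE 0.59, adjusted p = 0.0124). The libraries of raised flow day 1 gave 201, 78.0 and 102 CPM of Marcksl1. The other members of the maturation list that fell were Samsn1, an adaptor of lymphocyte signalling, Serpinb9, the inhibitor of granzyme B, and Tmem123, with log2 fold changes of -3.56, -3.99 and -2.70. In all, 6 of the 22 tested genes of the list fell and none rose, and the list's median was -1.52, against 0.0028 over all genes. Ccr7 itself stood lower at day 7 in both arms by 3.11 on the log2 scale, which is given without a test.

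Several co-stimulatory and checkpoint genes of the same list did not pass. Cd40 had 359 and 61.1 CPM at LT days 1 and 7 and 39.0 and 75.5 with raised flow, so the arms went opposite ways. Cd83 had log2 fold changes of -0.44, Cd86 of 0.36 and Cd80 of -0.17, and Cd274 one of -2.70 with an adjusted p of 0.287. Il12b was present at LT day 1 (107 CPM) and at 0.986 CPM at LT day 7, and was not detected in the other 6 samples, with 7 cells in all. Il15, a cytokine that maintains CD8 T and NK cells, was seen at 36.9 CPM at LT day 1 and 2.05 CPM with raised flow at day 1.

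Other genes that stood higher in the Ccr7 population than in the cells with neither gene fell too. Aldh1a2 went from 386 to 2.96 CPM after LT and from 26.7 to 0 with raised flow (log2 fold change -7.13, SE 0.70, adjusted p = 0.000370). The libraries of raised flow day 1 gave 45.8, 0 and 0 CPM of Aldh1a2. Il7r, the receptor of interleukin 7, went from 268 to 0.986 and from 65.7 to 4.04 CPM (-5.49, SE 0.76, adjusted p = 0.00374). Lad1, Lxn and Lysmd2 fell from 258, 184 and 208 CPM at LT day 1 to 0, 4.93 and 7.89 at LT day 7. Cd63 and Lamp1, membrane proteins of late endosomes and lysosomes, fell by 3.27 and 3.21 on the log2 scale, and the calcium-binding genes S100a6 and S100a4 by 2.95 and 2.51.

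The interferon-stimulated gene Isg15 and the chemokine gene Ccl5 fell as well. Isg15 stood at 8669 CPM at LT day 1 and 360 at LT day 7, and at 636 and 72.1 CPM with raised flow (log2 fold change -3.87, SE 0.45, adjusted p = 0.000904). Ccl5 stood at 3598 and 590 CPM after LT and at 470 and 124 with raised flow (-2.26, SE 0.38, adjusted p = 0.00918), and here the day 1 and day 7 levels overlapped between the arms. Ly6e, also counted as interferon-stimulated, rose from 93.9 to 530 and from 146 to 387 CPM (1.95, SE 0.41, adjusted p = 0.0425). In C1q macrophages of the same samples Ly6e stood at 223 and 688 CPM after LT and at 122 and 599 with raised flow. Of 29 tested interferon-stimulated genes, Isg15 and Ly6e were the 2 that passed, in opposite directions, and the list's median was 0.22.

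The genes that rose from day 1 to day 7 held no cDC1, maturation or MHC class II gene. Lyz2, the lysozyme of myeloid cells, rose from 516 to 2432 CPM after LT and from 696 to 2162 with raised flow (log2 fold change 1.94, SE 0.34, adjusted p = 0.0124). In C1q macrophages of the same samples it stood at 7704 and 16994 CPM after LT and at 6855 and 18884 with raised flow. In all other kept cells it stood at 3485 and 5563 and at 3224 and 5704 CPM. Whether the rise was particular to the dendritic cells was not tested. S100a9, a subunit of calprotectin that is abundant in neutrophils, stood at 87.2 and 560 CPM after LT and at 47.2 and 254 with raised flow (2.56, SE 0.42, adjusted p = 0.00797), but most of its day 7 UMIs sat in 1 library of each arm (565 UMIs of LT library 2 and 279 of raised-flow library 2). Within LT day 7 its 3 libraries gave 2.62, 7629 and 3.58 CPM, and within raised flow day 7 they gave 97.0, 1228 and 0 CPM. Without those 2 libraries the day 7 levels were 3.19 and 78.0 CPM. With the libraries fitted singly, the fold turned to -0.77 (adjusted p = 0.929).

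Gzma, Gzmk and Nkg7, genes of cytotoxic T and NK cells, gave no UMI in the dendritic cells of either day 1 sample. At day 7, Gzma stood at 158 CPM in 7 cells after LT and 21.6 CPM in 6 cells with raised flow (adjusted p = 0.00596). Gzmk stood at 53.2 and 22.2 CPM in 13 and 3 cells (adjusted p = 0.0241), and Nkg7 at 61.1 and 18.9 CPM in 6 and 4 cells (adjusted p = 0.0239). With raised flow, 27 of the UMIs of Gzma, 31 of Gzmk and 25 of Nkg7 came from library 2, without which the day 7 levels were 3.98, 1.59 and 2.39 CPM. After LT, 137 UMIs of Gzma, 32 of Gzmk and 39 of Nkg7 came from library 1, without which the levels were 36.3, 34.8 and 36.3 CPM. Gzma in all other kept cells was at 12.6 and 15.3 CPM at day 1 and at 511 and 483 CPM at day 7. The part of free RNA or of joined T cells in the dendritic cells' values was not tested.

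Epithelial genes also stood among those lower at day 7. Reg3g, an antimicrobial lectin, was at 63.7 and 3.94 CPM after LT and at 127 and 9.44 with raised flow (log2 fold change -3.77). In all other kept cells of the same samples it stood at 10939 and 507 CPM and at 4737 and 1277 CPM. Gpx2, a glutathione peroxidase of gut-type epithelium, was at 67.1 and 7.89 CPM and at 65.7 and 11.5 (-2.72), with 5058 and 640 and 1798 and 1073 CPM in the other cells. Reg3b and Agr2 behaved alike, with log2 fold changes of -4.51 and -3.82. The part of RNA from epithelium in these 4 results was not tested.

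**Figure D4:**
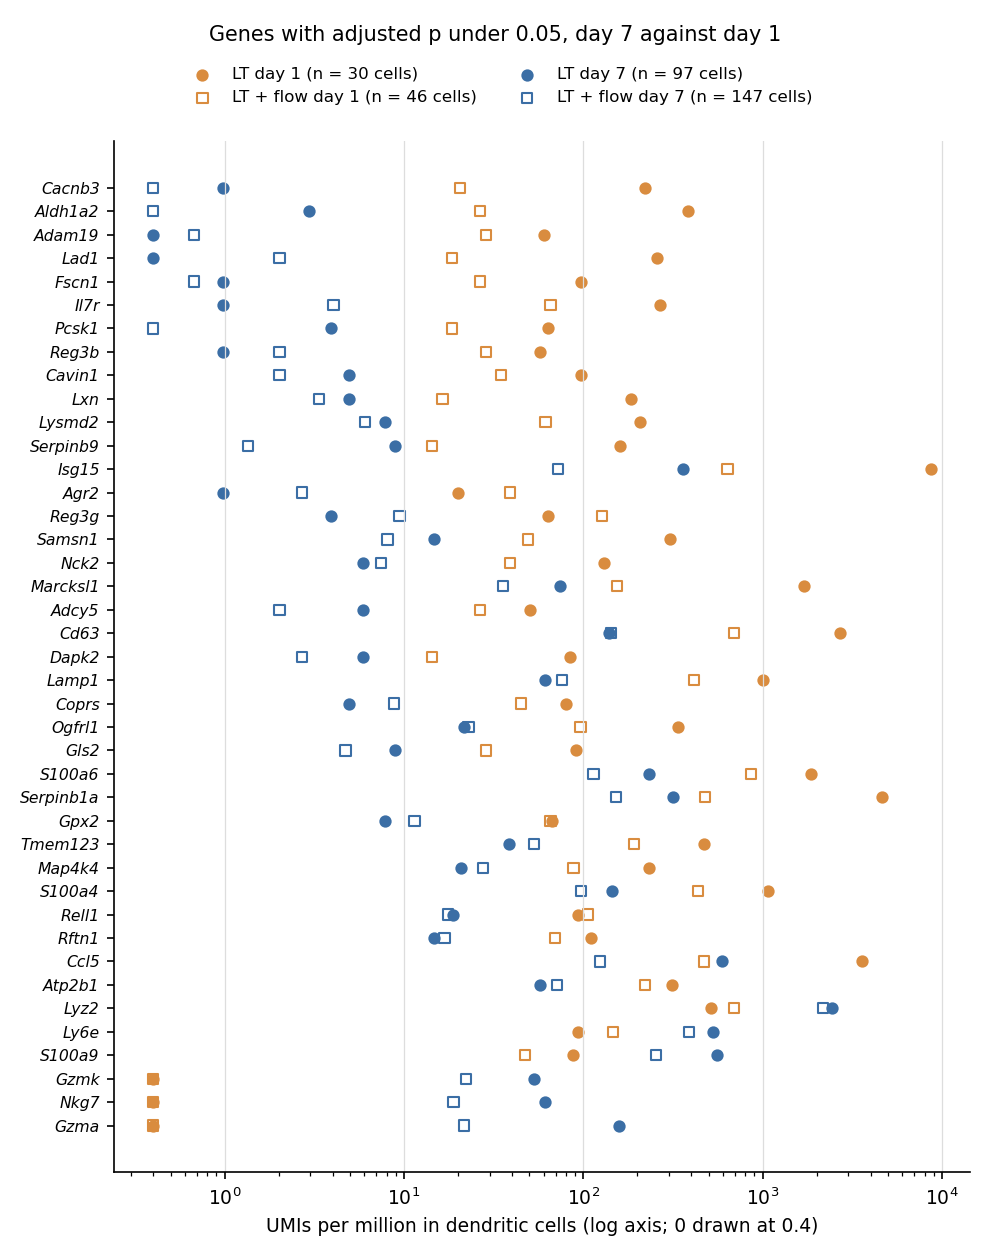
CPM in the dendritic cells (log axis, values of 0 drawn at 0.4) of the 41 genes other than Ccr7 that passed an adjusted p of 0.05 between day 7 and day 1. Orange marks day 1 and blue day 7, with filled circles for LT and open squares for raised flow. Most genes lie lower at day 7, and LT day 1 is the highest point for Cacnb3 (221 CPM), Aldh1a2 (386 CPM) and Isg15 (8669 CPM).

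The identity and presentation genes of cDC1 did not pass between the days. Leaving out the genes of the rule, none of 11 tested cDC1 genes passed in edgeR, 6 had an unadjusted p below 0.05, 8 had a positive fold and the median was 0.85. Over all tested genes outside the rule, 380 of 5093 (7.46%) had an unadjusted p below 0.05. Irf8 had 255 and 608 CPM after LT and 474 and 642 with raised flow (log2 fold change 0.85, adjusted p = 0.599). Batf3 was near level at 53.7, 48.3, 59.5 and 50.6 CPM. Of 11 tested MHC class II genes other than RT1-Da none passed, 5 had an unadjusted p below 0.05, 8 were positive and the median was 0.61, with RT1-Ba at 0.79 (adjusted p = 0.472), RT1-Db1 at 0.79 (0.429), Cd74 at 0.61 and Ciita, the class II transactivator, at 1.51 (0.632).

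The same held for most other lists. None of 19 MHC class I processing genes, 25 cell cycle genes, 22 NF-kB targets, 21 hypoxia and glycolysis genes, 9 TGF-beta genes, 8 genes of the cAMP-responsive factor Crem and 7 plasmacytoid genes passed, with medians of -0.09 for class I, -0.41 for NF-kB, -0.22 for hypoxia and -0.06 for the Crem list. Crem had a log2 fold change of -0.05 and Vim, the intermediate filament vimentin, of 0.29. The proliferation gene Mki67 stood at 3.35 CPM at LT day 1 and at 48.3, 57.5 and 35.1 CPM at LT day 7 and with raised flow at days 1 and 7.

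Since the populations were unequally present at the 2 days, levels were also taken within each population, as a description with few cells. In the Ccr7 population of LT day 1 (24 cells), LT day 7 (7), raised flow day 1 (11) and raised flow day 7 (3), Isg15 stood at 10611, 944, 2830 and 33.6 CPM. Ccl5 stood at 4326, 529, 2113 and 33.6 CPM, Marcksl1 at 2053, 365, 660 and 201, and Aldh1a2 at 477, 12.6, 124 and 0. RT1-Da ran the other way, at 6152, 17752, 4341 and 24125 CPM, as did Naaa, at 58.1, 264, 57.4 and 436. Of maturation genes, Cacnb3 stood at 274, 12.6, 95.6 and 0 CPM, Fscn1 at 120, 12.6, 115 and 0, Samsn1 at 377, 50.4, 143 and 0, and Serpinb9 at 199, 25.2, 38.2 and 0. Cd83, also of that list, did not follow, at 274, 403, 95.6 and 235 CPM. The raised-flow values of day 7 rest on 3 cells.

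In the 300 cells with neither gene the day 1 cells were 5 after LT and 28 with raised flow, against 88 and 136 at day 7. Isg15 there stood at 515 and 310 CPM at LT days 1 and 7 and at 33.1 and 74.5 with raised flow, so the arms differed in direction. Lyz2 stood at 1126 and 2487 CPM and at 948 and 2216, higher at day 7 in both arms. Marcksl1 stood at 153 and 47.5 CPM after LT and at 15.1 and 31.2 with raised flow. RT1-Da stood at 20928, 17327, 12838 and 16631 CPM in LT day 1, LT day 7, raised flow day 1 and raised flow day 7.

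Whether the dendritic cells of transplanted ducts differed from those of sham ducts was asked in samples with at least 10 dendritic cells, 6 transplanted and 2 sham samples, because no sham sample reached 20. Of 2903 genes tested by edgeR, 3 passed (0.103%), all lower after transplantation, while 260 had an unadjusted p below 0.05 and DESeq2 called 9. Fgl2, a fibrinogen-like protein with effects on T cells, stood at 1113 and 861 CPM in the sham samples, at 198, 353 and 233 at LT days 1, 3 and 7 and at 374, 256 and 340 with raised flow. All 6 transplanted samples lay below both sham samples (log2 fold change -1.73, SE 0.23, adjusted p = 0.0473). Of the 2903 genes tested, 492 had transplanted and sham levels that did not overlap, in either direction.

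Lmna, which codes for the nuclear lamins A and C, stood at 519 and 200 CPM in sham, at 6.71, 7.20 and 23.7 after LT and at 16.4, 80.8 and 24.3 with raised flow (log2 fold change -3.84, SE 0.57, adjusted p = 0.0476). In the other kept cells of those samples Lmna was at 582 and 562 CPM in sham and 254 to 397 after transplantation. In barcodes of at most 100 UMIs it was at 546 and 511 against 199 to 374 CPM. Prss1, the pancreatic enzyme trypsinogen, stood at 148 and 138 CPM in sham and at 0 to 14.8 in transplanted samples (-5.41, SE 0.82, adjusted p = 0.0476). In the other kept cells of those sham samples Prss1 was at 420 and 882 CPM, and in their barcodes of at most 100 UMIs at 7289 and 9151 CPM. With the profile of empty barcodes subtracted, edgeR called 1 gene in this comparison. The part of free RNA in the Prss1 and Lmna results was not tested further. No gene passed when the cells with Ccr7 or with Siglech were left out, which also took 1 sham sample and 2 or 1 transplanted samples below 10 cells, or when the day 3 samples were left out, and none passed in edgeR without either sham sample or without raised flow at day 1 or day 7, while 5 passed without LT day 1 or LT day 7.

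Of 11 tested chemokines none passed in edgeR, 8 had a positive fold, 4 had an unadjusted p below 0.05 and the median was 0.39. Ccl5 gave no UMI in either sham sample and averaged 1447 CPM after LT and 198 with raised flow. Ccl2 and Ccl17 had large negative folds that missed the threshold. Ccl2, which draws monocytes, stood at 1929 and 2383 CPM in sham, at 23.5, 14.4 and 165 after LT and at 433, 633 and 152 with raised flow (log2 fold change -3.57, adjusted p = 0.0991). Ccl17, a chemokine for CCR4 on T cells, stood at 193 and 415 CPM in sham, at 10.1, 57.6 and 17.7 after LT and at 88.3, 6.74 and 37.8 with raised flow (-3.23, adjusted p = 0.0991). For both, the sham and transplanted levels did not overlap, which also held for 492 of all 2903 genes tested. In C1q macrophages of the same samples Ccl2 stood at 4404 and 5569 CPM in sham and at 485 to 1940 after transplantation. In all other kept cells its levels overlapped, at 1568 and 1087 CPM in sham and 507 to 2360 after transplantation. Cxcl9 was at 14.8 and 53.8 CPM in sham and ranged from 14.4 at LT day 3 to 1011 with raised flow at day 3.

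Some genes were detected in transplanted and not in sham samples. Cd40 gave no UMI in either sham sample and stood at 359, 28.8 and 61.1 CPM after LT and 39.0, 121 and 75.5 with raised flow. S100a8, a gene of the neutrophil list, likewise gave none in sham and 41.1 to 201 CPM in transplanted samples. S100a9 of the same list stood at 61.4 and 187 CPM in barcodes of at most 100 UMIs of sham samples 2 and 3. In those of the transplanted samples it stood at 1136 to 11107 CPM. The part of free RNA in the S100a8 values was not tested. With 67404 and 130082 UMIs in the sham dendritic cells, 3 UMIs would be 44.5 and 23.1 CPM there, so for Cd40 the levels at LT day 3 and with raised flow at day 1 lie below the first of these limits.

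Lists gave no call beyond these genes. Of 17 MHC class I processing genes none passed in edgeR, 5 had an unadjusted p below 0.05, 15 had a positive fold and the median was 0.71, against 0.0519 over all genes. Psmb9, a subunit of the immunoproteasome, was at 597 CPM on average in sham and 1236 in transplanted samples (log2 fold change 1.09, adjusted p = 0.293). Without the genes of the rule, 3 of 9 MHC class II genes were positive (median -0.21) and none of 9 cDC1 genes passed (median -0.30). The maturation list had 10 of 15 positive with a median of 0.81, or 0.68 with genes absent from sham set at their limit. The interferon list had 11 of 16 positive and a median of 0.57. In sum, the maturation list stood at 6302 CPM at LT day 1, 1307 to 1958 in the other transplanted samples, and 1988 and 1637 in sham. The interferon list stood at 13452 CPM at LT day 1, 2007 to 4256 in the others, and 5163 and 2775 in sham. Crem stood at 430 and 284 CPM in sham and at 219 to 314 in transplanted samples (-0.37, adjusted p = 0.686).

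The arms were also set against the same 2 sham samples one at a time, which are therefore shared between these comparisons. LT against sham gave no call (0.0%) in edgeR, 303 genes with an unadjusted p below 0.05 and 11 calls by DESeq2. Raised flow against sham gave none (0.0%), 180 and 8. The maturation list had a median of 1.44 in the first, and of 0.27 in the second, which became 0.0 with genes absent from sham at their limit. Summed, this list stood at 6302, 1778 and 1401 CPM at LT days 1, 3 and 7, and at 1988 and 1637 CPM in sham. LT day 1 thus was the only LT sample with a sum above both sham samples. It rests on 30 cells, 29 of them from 1 library, and 25 of the 30 carried the rule gene Ccr7.

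Raised flow was compared with LT alone in the day 1 and day 7 samples of each arm, which had at least 20 dendritic cells. Of 5100 genes none passed in edgeR (0.0%), 99 had an unadjusted p below 0.05 and DESeq2 called 3. This fit held no term for the day, so the change between days was part of its spread. With the day as a block, edgeR called 4 genes, all lower with raised flow, and 186 had an unadjusted p below 0.05. With 1 sample left out, edgeR called 58 genes without LT day 1, 845 without LT day 7 and 0 without either raised-flow sample. The lone sample of an arm is then assumed to vary like those of the other arm. Isg15 averaged 354 CPM with raised flow and 4514 after LT (log2 fold change -4.07), Ifi27l2b, an interferon-induced gene, 57.5 and 730 (-3.87), and Mx1, an antiviral GTPase, 98.3 and 315 (-1.93), each with an adjusted p of 0.99955. Of 29 tested interferon-stimulated genes 1 had a positive fold, 12 had an unadjusted p below 0.05, and the median was -1.43, against -0.00053 over all genes. The maturation list had 2 of 22 positive and a median of -1.48, and the class I list 4 of 19 and -0.61. Summed, the maturation list stood at 6302 CPM after LT and 1958 with raised flow at day 1, but at 1401 and 1357 at day 7. The class I list stood at 35666 and 14664 CPM at day 1, and at 20023 and 21425 at day 7. The interferon list stood at 13452 and 2007, and at 4256 and 3042. At LT day 1, 25 of the 30 cells carried the rule gene Ccr7, and its part in these lists was not tested.

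The arms were then read day by day. Isg15 was at 8669 CPM at LT day 1 and at 360 at LT day 7, against 636 and 72.1 with raised flow, so that LT was above raised flow on each of these days. In C1q macrophages of the same samples it stood at 787 and 468 CPM after LT and at 88.4 and 192 with raised flow. In all other kept cells it stood at 393 and 786 and at 111 and 278 CPM. Mx1 was at 225 and 405 CPM at LT days 1 and 7 and at 115 and 81.6 with raised flow. In the macrophages Mx1 stood at 194 and 274 CPM and at 56.0 and 126. Whether the difference between the arms was particular to the dendritic cells was not tested. Mx2, a relative of Mx1, was at 73.8 and 154 and at 34.9 and 28.3. RT1-CE10, a class I gene of the RT1 region, was at 3793 and 2836 CPM and at 753 and 762, but its near-identical copies can share reads, so its level is uncertain. At day 3, with 11 and 15 cells, the order was not kept for Mx1, which stood at 28.8 CPM after LT and 87.6 with raised flow.

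The rule's own genes ranged as follows over the 8 samples. Flt3 stood at 178 and 84.6 CPM in sham and at 16.8 (LT day 1) to 101 (LT day 3) after transplantation. Xcr1 stood at 59.3 and 92.2 CPM in sham, at 13.4, 21.6 and 156 at LT days 1, 3 and 7 and at 57.5, 108 and 150 with raised flow. Clec9a ranged from 108 to 252 CPM and RT1-Da from 8740 at LT day 1 to 17292 at LT day 7. Naaa, outside the rule, was lowest at LT day 1, at 205 CPM, and highest with raised flow at day 3, at 768.

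Antigen presentation genes were high in every sample. MHC class II genes summed to 38436 CPM at LT day 1 and to 67690 with raised flow at day 7, with the sham samples at 53305 and 62807. These sums include RT1-Da, which every cell had to carry by the rule. RT1-Bb was at 7062 CPM with raised flow at day 7 and 2058 at LT day 7, against 4080 and 4551 in sham. The 3 libraries of LT day 7 gave 3659, 4388 and 657 CPM, and without the third the level was 3777. Class I processing genes summed to 35666 CPM at LT day 1 and to 12930 to 21425 elsewhere, with B2m at 18593 CPM there and at 4469 to 9726 elsewhere.

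**Figure D5:**
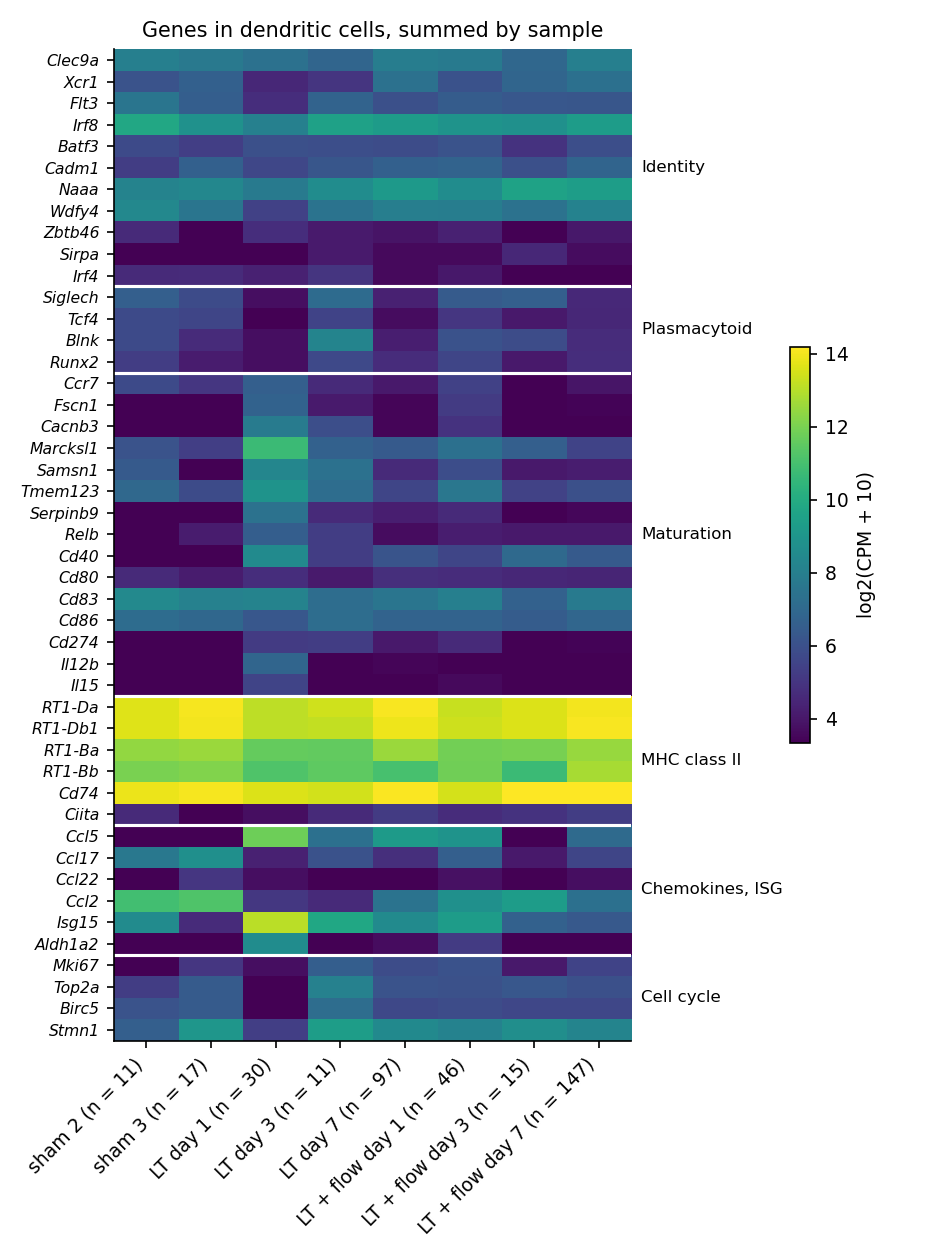
Heat map of log2(CPM + 10) for genes of dendritic cells (rows, grouped as identity, plasmacytoid, maturation, MHC class II, chemokines and interferon-stimulated genes, and cell cycle) in the 8 samples with dendritic cells (columns). LT day 1 stands out by high Isg15 (8669 CPM), Marcksl1 (1690 CPM) and Ccl5 (3598 CPM) and by low Xcr1 (13.4 CPM).

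Markers of other cell types were summed in the dendritic cells of each sample. The 17 T and NK genes gave 0 to 334 CPM, highest at LT day 7, with 5 of them at 0 in every sample. The 14 macrophage genes gave 162 to 946 CPM, highest with raised flow at day 1, where Apoe alone stood at 774 CPM. The 14 B and plasma cell genes gave 15.4 to 180 CPM and the 15 epithelial genes 20.7 to 97.3, the latter highest at LT day 1. The 15 fibroblast and mural genes gave 386 and 192 CPM in sham and 33.5 to 133 after transplantation. The 10 mast cell and basophil genes gave 603 CPM with raised flow at day 1, where Cpa3, Tpsb2 and Cma1 sat in 1 to 3 cells each, and 6.71 to 74.2 CPM elsewhere.

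The neutrophil and endothelial lists include Slpi and Kdr, which stood out in the dendritic cells against the other cell classes. Whether the RNA of these lists was the dendritic cells' own was not tested. The 14 neutrophil genes summed to 20058 to 53060 CPM, most of it Slpi, and the 14 endothelial genes to 284 to 579 CPM, with Kdr at 84.6 to 445. The 11 monocyte genes gave 1353 to 2567 CPM. Ptprc was detected in 310 of the 374 cells, but in 15 of the 30 at LT day 1, at 124 CPM there and at 224 to 519 CPM elsewhere. The free RNA of each library was estimated from 27 marker genes of other cells at 0.658 to 6.11% of the dendritic cells' UMIs. With the profile of empty barcodes subtracted, edgeR called 1 gene in place of 3 for transplanted against sham samples, and 58 in place of 42 for day 7 against day 1. Apart from these counts, the part of these other RNAs in the comparisons above was not tested.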

How the data were processed

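Single-cell suspensions of digested bile ducts were profiled with 10x 3' libraries. The deposited values are UMI counts for each gene and barcode, made by the authors with Cell Ranger 5.0.1 and, per the submitters' processing notes, Seurat 3.2.0. They are not normalized and include empty barcodes. The genome build was not given in the sources used here. The matrices of 20 libraries held 23999 features and 23836 symbols, and features of the same symbol were added up. Samples were grouped by their labels. The libraries of a sample were added up to 9 samples, and no column of per-sample values was left unused.

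A barcode was kept as a cell when it had over 400 but under 6000 genes and when mitochondrial UMIs were below 25% and hemoglobin UMIs below 3% of its total. No doublet caller was run, and leaving out the 7.5% of cells with the most UMIs in each library served as an alternative. The members and the 28 gene lists were chosen with earlier results of these data known. Counts of the dendritic cells were summed for each sample (samples with at least 20 cells, or 10 where sham was compared, a change made after the cell numbers were seen) and tested with edgeR 4.0.16 (R 4.3.3), with filterByExpr, TMM and the quasi-likelihood F test. DESeq2 1.42.0 was an alternative. Calls had a Benjamini-Hochberg adjusted p under 0.05. CPM are UMIs per 1000000 UMIs of the dendritic cells in the sample, and log2 fold changes are those of the fit. Genes at 0 in a whole group are given as counts and CPM, without a fold.

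A first set of genes was named by rule. It held the 10 with the most positive and the 10 with the most negative fold, called members of the lists, and a set of dendritic cell genes. The former were taken among called genes with at least 50 CPM in a group and groups that did not overlap. Further genes of the comparisons, such as Ccl2, Mx1, Ifi27l2b, Psmb9 and Reg3g, were named outside this rule, with their values seen. Names in the descriptions of populations and of single samples were also chosen after their values were seen. Shares were compared over samples by exact permutation. Intervals are exact 95% binomial or Poisson intervals, and with the limit for a count of 0 (3 counts) they cover counting error only. The labels do not say whether samples were separate animals, so p-values measure the spread between these samples, which may be technical. The samples of an arm were of different days. In the comparisons between arms and with sham, the change between days is therefore part of that spread. Samples of the same day did not deviate together in all 3 pairs (correlations 0.0726, -0.0448 and 0.165). The scripts were tested on simulated data. Python 3.11.15 with numpy 2.4.6, pandas 2.3.3, scipy 1.17.1 and matplotlib 3.10.9 was used for the rest.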

Additional observations from a re-analysis of the deposited data

Results flagged for a closer look

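In the 6 transplanted samples, 47 values were examined for a highest or lowest sample that stood apart from the others by a gap of more than 0.625 of the whole range (Dixon's criterion for 6 samples). This held for 23 of them. Chance flags about 1 in 20 groups, but that rate does not apply here, since many of the values are of genes named for their change between day 7 and day 1 in these same samples, 1 is the share with the rule gene Ccr7, and all come from the same cells. The 6 samples span both arms and 3 days.

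LT day 1 stood above the other 5 transplanted samples in 16 of them. Its share of dendritic cells with Ccr7 was 83.3%. For maturation genes it had 221 CPM of Cacnb3, 97.3 CPM of Fscn1, 1690 CPM of Marcksl1, 161 CPM of Serpinb9, 473 CPM of Tmem123, 359 CPM of Cd40, 83.8 CPM of Relb and 107 CPM of Il12b. Aldh1a2 stood at 386 CPM, Lad1 at 258, Lxn at 184, Lysmd2 at 208 and S100a4 at 1066 CPM. Isg15 reached 8669 CPM and Ccl5 3598 CPM. These values rest on 30 cells, 29 of them from 1 library.

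LT day 3 had the highest median depth, at 12548 UMIs in a dendritic cell, over 11 cells. LT day 7 had the highest Gzma and Nkg7, at 158 and 61.1 CPM. Raised flow at day 3, with 15 cells, had the highest Lmna (80.8 CPM) and Vim (3988 CPM) and the lowest Batf3 (20.2 CPM). Raised flow at day 7 had the highest RT1-Bb, at 7062 CPM. The share of dendritic cells, raised flow minus LT, was 0.244 percentage points at day 7 and below 0 at days 1 and 3. The difference between the days was not tested, as there was 1 sample of each arm at a day.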

How the results depend on the processing

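Counts of called genes below are from edgeR unless DESeq2 is named. Low cell numbers set the main limit, with 11 and 17 dendritic cells in the sham samples and 11 and 15 at day 3, and 1 residual degree of freedom between days 7 and 1. The share difference between transplanted and sham samples passed with cells thinned to 2000 UMIs (0.0522 percentage points, exact permutation p = 0.0238) and turned to -0.0933 against cells with Ptprc. Thinning left 0, 1 and 2 dendritic cells in the sham samples. With single samples left out it was 0.0980 to 0.187, and raised flow minus LT was -0.0751 to 0.146. The share with Ccr7 moved under thinning to 60.0% at LT day 1 and 0% with raised flow at day 1. For transplanted against sham, the count of 3 became 9 by DESeq2, 48 with no filter on low counts, 1 with the profile of empty barcodes subtracted, and 0 without the cells of most UMIs, with under 2 UMIs of 10 further genes of other cells required, without Ccr7 cells, without Siglech cells (the last 3 also lost 1 sham sample) and without day 3, with 0 to 5 as single samples were left out. LT against sham gave 11 by DESeq2, 95 with no filter and 0 to 2 with single samples left out, and raised flow against sham 8 by DESeq2 and 34 with no filter. Raised flow against LT gave 3 by DESeq2, 122 with no filter, 15 without Ccr7 cells (which also left LT day 1 out, as it then had under 20 cells), 1 with each library as a sample, and 0 to 845 with single samples left out (58 without LT day 1, 845 without LT day 7). With the day as a replicate block it gave 4, and the share p was 1.0. The pairing by day is a shared number of the labels, not shared animals. Without TMM the median of all genes in that comparison moved from -0.00053 to 0.23. Day 7 against day 1 gave 100 without TMM, 125 with no filter, 9 without the cells of most UMIs, 0 without Siglech cells and 4 from samples with at least 10 cells. Of 233 alternative values of named genes 145 kept direction and call, 87 lost the call and 1 reversed, S100a9, at -0.77 with each library as a sample. Except where a fit had fewer samples or cells, the cause was not tested. Leaving out single samples or Ccr7 cells between days 7 and 1 left no residual degree of freedom at 20 cells and was not run, nor was a fit of cells with Ccr7 and neither Xcr1 nor Clec9a. The minimum of 10 cells, the fits without Siglech cells and the thinned share with Ccr7 were chosen after seeing the data.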
